A study of Rattus norvegicus with 8 samples.

Results

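GAA, DPP7, GPNMB, AP1S2 and ATP6V1G3 are 5 genes of the lysosome and of vesicle traffic, read here as 5 of the 28295 probe sets measured on each array. They were chosen by their fold in the study's own gene tables, GAA and DPP7 from BRC-treated against control GH3 cells and the other 3 from CAB-treated against control MMQ cells. Values from those pairs of arrays are therefore descriptions, carry no test and support nothing. GH3 and MMQ are rat pituitary tumour lines. GH3 cells release prolactin and growth hormone, and MMQ cells release prolactin. Bromocriptine (BRC) and cabergoline (CAB) are ergot-derived dopamine agonists used against prolactin-secreting tumours. In each line, 1 array was made of control cells, 1 of BRC-treated cells, 1 of CAB-treated cells and 1 of cells given both drugs (CAB+BRC), so there are 8 arrays and no replicate of any condition. Each single drug was given at 50 μM. Exposure was 48 h for the BRC array of GH3 cells and the CAB array of MMQ cells. It was not found for the CAB array of GH3 cells and the BRC array of MMQ cells, nor were dose and time for the combinations. By the labels the drugs were dissolved in DMSO. The study's gene tables call the control cells untreated, and whether they were given the solvent was not found. The lines grew in different media, so line and medium cannot be told apart.

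The lysosome is an acidic organelle in which enzymes take apart sugars, proteins and lipids that arrive by endocytosis or autophagy. A proton pump, the V-ATPase, keeps it acidic, and clathrin adaptors load enzymes and membrane proteins into vesicles between the Golgi apparatus and endosomes. The transcription factors TFEB, TFE3 and MITF bind short E-box sequences near many lysosomal genes, of which the letters CACGTG and CATGTG are typical cores. Prolactin itself is stored in secretory granules, and granules that are not released can be degraded in lysosomes.

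Probe set names could not be used, because the names in the table did not go with the values. Among 3971 gene names carried by more than 1 probe set, the mean log2 intensities of the first 2 probe sets correlated at r = -0.02 across genes. Each of the 5 genes was found instead by its fold to within a relative tolerance of 1e-06, which exactly 1 probe set met in each case, while the next nearest probe set lay at least 0.155% away. None of the 5 probe sets (0 of 5) carried its gene's name in the table. Each gene is thus seen through 1 probe set, the one listed by the authors for its fold. The names GAA, AP1S2 and ATP6V1G3 are each carried by more than 1 probe set. Agreement between probe sets of a gene could not be checked. Other lysosomal genes and markers of the pituitary cell type could not be read, and the identity rests on the authors' tables. The medians of the 8 arrays lay between 45.9 and 49.9. No detection calls were used. Intensities are on a linear scale, and log2 differences were taken after adding 1.

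GAA encodes acid alpha-glucosidase, the enzyme that breaks down glycogen inside the lysosome. In GH3 cells its intensity was 194 in the control, 664 under BRC, 578 under CAB and 635 under CAB+BRC. The 3 treated arrays lay close together and far above the single control array. In MMQ cells, whose arrays had no part in choosing it, GAA stood at 326 in the control, 297 under BRC, 537 under CAB and 450 under CAB+BRC. Both arrays with CAB were above both arrays without it, by log2 differences of 0.72 for CAB against control and 0.60 for CAB+BRC against BRC. With BRC the MMQ values were slightly lower, by log2 differences of -0.13 against control and -0.25 against CAB alone.

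DPP7 encodes a dipeptidyl peptidase, which removes pairs of amino acids from the ends of peptides and resides in lysosome-related vesicles. In GH3 cells its intensity was 357 in the control, 1050 under BRC, 1333 under CAB and 1007 under CAB+BRC. As for GAA, all 3 treated arrays were well above the control. In MMQ cells it measured 360 in the control, 516 under BRC, 983 under CAB and 944 under CAB+BRC. The untreated levels of DPP7 in the lines were thus nearly equal, and CAB against control gave a log2 difference of 1.45 in MMQ cells. That difference ranked 113 from the top of all 28295 probe sets in a pair of arrays that did not choose the gene. With BRC present the same drug gave 0.87, for CAB+BRC against BRC. GAA and DPP7 were the pair of members with the most similar profiles, with r = 0.91 over the 8 arrays. These arrays share lines and drugs, so this r is a description only.

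The RefSeq promoter table (build GRCr8), which lists all 5 genes, was searched on both strands for the E-box letters CACGTG, which read alike on both strands, and CATGTG, which reads CACATG on the other strand. The window was the 250 bases before each start site, and the bases after it were not searched. Among 33469 promoters, 5.59% held CACGTG, 12.1% held CATGTG or CACATG, and 17.1% held either. GAA, DPP7, GPNMB and AP1S2 each held 1 match and ATP6V1G3 held 0. The stretches are shown so that the letters can be compared between genes, and the matches are not evidence about the directions of change, which chose the genes. Capitals mark the matched letters, and each line reads 5′ to 3′ on the gene's strand. A match is a description of letters and no measured binding.
GAA, chr10:105028258-105028323, plus strand: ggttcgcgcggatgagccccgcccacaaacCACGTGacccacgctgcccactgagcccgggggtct
DPP7, chr3:28567503-28567568, minus strand: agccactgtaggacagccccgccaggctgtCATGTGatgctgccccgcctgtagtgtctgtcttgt
GPNMB, chr4:79341076-79341127, plus strand: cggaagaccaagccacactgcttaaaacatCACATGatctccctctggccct
AP1S2, chrX:34230899-34230934, minus strand: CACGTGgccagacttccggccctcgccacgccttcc
The match began 67 bases before the start site in GAA, 46 in DPP7 and 22 in GPNMB. In AP1S2 it lay at the far end of the window, 250 bases before the start.

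GPNMB encodes a transmembrane glycoprotein of melanosomes, endosomes and lysosomes. Its intensity in MMQ cells was 233 in the control, 454 under BRC, 2267 under CAB and 2237 under CAB+BRC. Both arrays with CAB stood apart from both without it, and CAB+BRC against BRC, a pair sharing no array with the one that chose the gene, gave a log2 difference of 2.30. In GH3 cells the values were 15.9 in the control, 53.4 under BRC, 24.0 under CAB and 47.6 under CAB+BRC. Here the pattern was turned around, since both arrays with BRC were above both arrays without it. BRC gave a log2 difference of 1.69 against control, rank 29 from the top, and CAB+BRC against CAB gave 0.96, rank 18. The GH3 values are low ones: they sat between percentiles 25.2 and 51.5 of their arrays, against 79.9 to 98.6 in MMQ cells. All 4 MMQ arrays lay above all 4 GH3 arrays. GPNMB was the only member whose lines did not overlap, and 40.0% of all probe sets showed such a separation.

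AP1S2 encodes a small subunit of the AP-1 adaptor complex, which gathers cargo into clathrin-coated vesicles. In MMQ cells its intensity was 11.9 in the control, 10.0 under BRC, 84.5 under CAB and 72.3 under CAB+BRC. The values without CAB were dim, that with BRC at percentile 12.7 of its array, so the size of the difference depends on values near the low end of the scale. CAB+BRC against BRC, which shares no array with the choosing pair, gave a log2 difference of 2.74, rank 7 from the top. In GH3 cells the values were 72.2 in the control, 111 under BRC, 170 under CAB and 145 under CAB+BRC. All 3 treated arrays were above the control, and the arrays with CAB were the highest. The log2 difference for CAB against control was 1.23, rank 175. The CAB level of MMQ cells thus came close to that of untreated GH3 cells, and the lines overlapped.

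ATP6V1G3 encodes an isoform of the G subunit in the cytosolic part of the V-ATPase, and it was the only member chosen as lower with drug. In MMQ cells its intensity was 196 in the control, 57.1 under BRC, 20.2 under CAB and 18.7 under CAB+BRC. Every treated array was below the control, and the arrays with CAB were the lowest, both at percentile 30.2 of their arrays. BRC against control gave a log2 difference of -1.76, rank 5 from the bottom, although this pair shares the control array on which the gene was chosen. CAB+BRC against BRC, with no shared array, gave -1.56, rank 135 from the bottom. In GH3 cells, which did not choose it, ATP6V1G3 measured 969 in the control, 194 under BRC, 299 under CAB and 219 under CAB+BRC. The log2 difference was -2.31 for BRC against control, rank 5 from the bottom of all probe sets, and -1.69 for CAB against control, rank 28. With CAB already present, BRC gave -0.44. In these cultures, a change in the share of cells that carry the RNA and a change in RNA per cell cannot be told apart. This holds for each of the 5 genes.

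**Figure D1:**
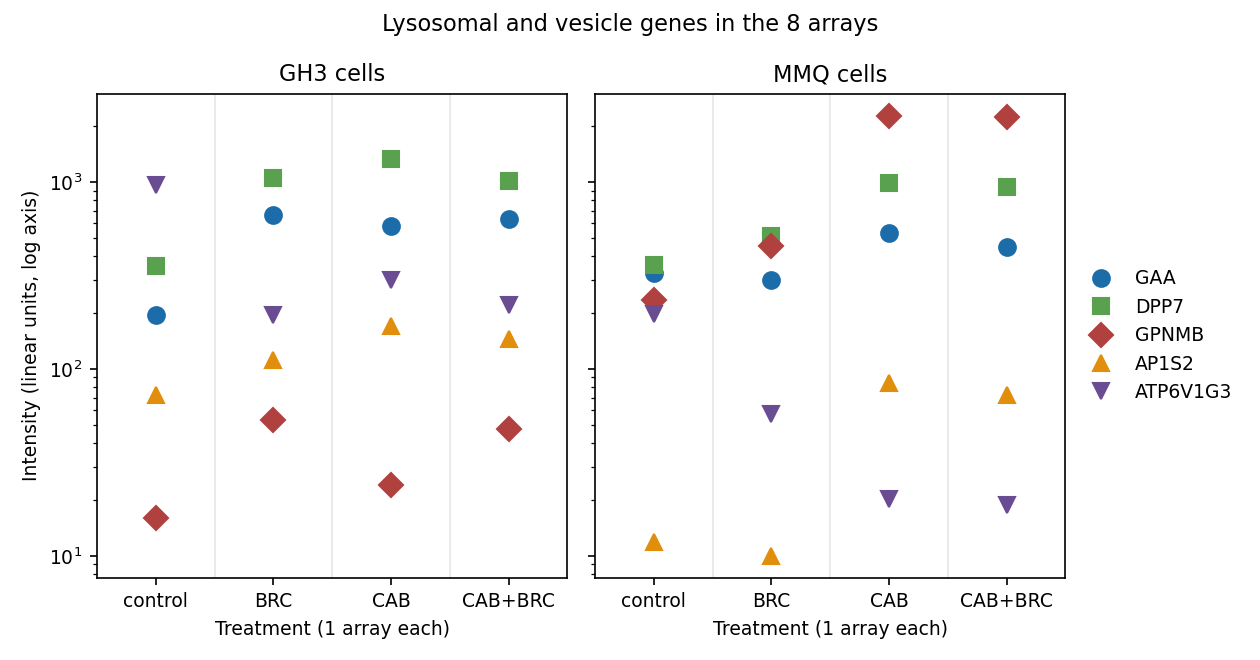
Intensity (log axis, linear units) of the 5 genes in the 4 GH3 arrays (left) and the 4 MMQ arrays (right), 1 point per array and no error bars because no condition has a replicate. In GH3 cells the control is the lowest point of each gene except ATP6V1G3, where it is the highest (969), and in MMQ cells the 2 arrays that hold CAB gave similar values of every gene, as for GPNMB at 2267 and 2237.

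The 5 genes were set against all probe sets in each pair of arrays, counting those at least 2-fold apart, the cutoff of the study. In GH3 cells 4 of the 5 genes were 2-fold apart with BRC against control, where 1.80% of all probe sets were, and 2 of these 4 had been chosen on that pair. The 2 that had not were GPNMB, higher, and ATP6V1G3, lower. With CAB against control it was 4 of 5 against 2.43% of all, namely GAA, DPP7 and AP1S2 higher and ATP6V1G3 lower. With CAB+BRC against control it was again 4 of 5 against 1.66%, with GAA, DPP7 and GPNMB higher, ATP6V1G3 lower and AP1S2 just short at a log2 difference of 1.00 (2.01-fold before 1 is added). All 3 of these pairs share the single GH3 control array.

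Among the treated GH3 arrays, CAB+BRC against CAB had 0 of 5 genes 2-fold apart (0.163% of all), with GPNMB closest at 1.98-fold, and CAB+BRC against BRC had 0 of 5 (0.106% of all). CAB against BRC had 1 of 5, GPNMB, lower with CAB by a log2 difference of -1.12, against 0.530% of all. For BRC in GH3 cells, the pair CAB+BRC against CAB measures BRC with CAB present, on arrays that had no part in choosing GAA and DPP7. It is no repeat of BRC against control, since the dose and time of the combination were not found. CAB alone already stood above control by log2 differences of 1.57 for GAA and 1.90 for DPP7. In CAB+BRC against CAB, GAA had a log2 difference of 0.14 and DPP7 one of -0.40, while BRC against control gave 1.77 and 1.55. Over all probe sets, too, the pairs with the control held more at 2-fold (1.66% to 2.43%) than the pairs among treated arrays. An array that stands apart and a drug response shared by the treated arrays cannot be told apart with 1 control array.

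In MMQ cells, BRC against control had 1 of 5 genes 2-fold apart, ATP6V1G3, where 0.262% of all probe sets were. CAB against control had 4 of 5 against 2.46%, of which 3 were chosen on it and the fourth was DPP7. CAB+BRC against control had the same 4 genes and 2.51% of all probe sets. All of these pairs share the single MMQ control array, on which GPNMB, AP1S2 and ATP6V1G3 were chosen. With BRC present in both arrays, CAB+BRC against BRC had 3 of 5, namely GPNMB and AP1S2 higher and ATP6V1G3 lower, against 1.96% of all. This pair measures CAB with BRC present, without either array that chose the 3 genes, and all 3 kept direction at 2-fold or more. The dose and time of its combination array were not found. CAB+BRC against CAB had 0 of 5, against 0.721%. The median log2 difference of the 5 genes was 1.39 for CAB+BRC against control, while that of all probe sets was -0.03. As that pair holds the control array on which 3 of the genes were chosen, the median is a description only. This median hides opposite directions, since ATP6V1G3 was lower by a log2 difference of -3.32.

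**Figure D2:**
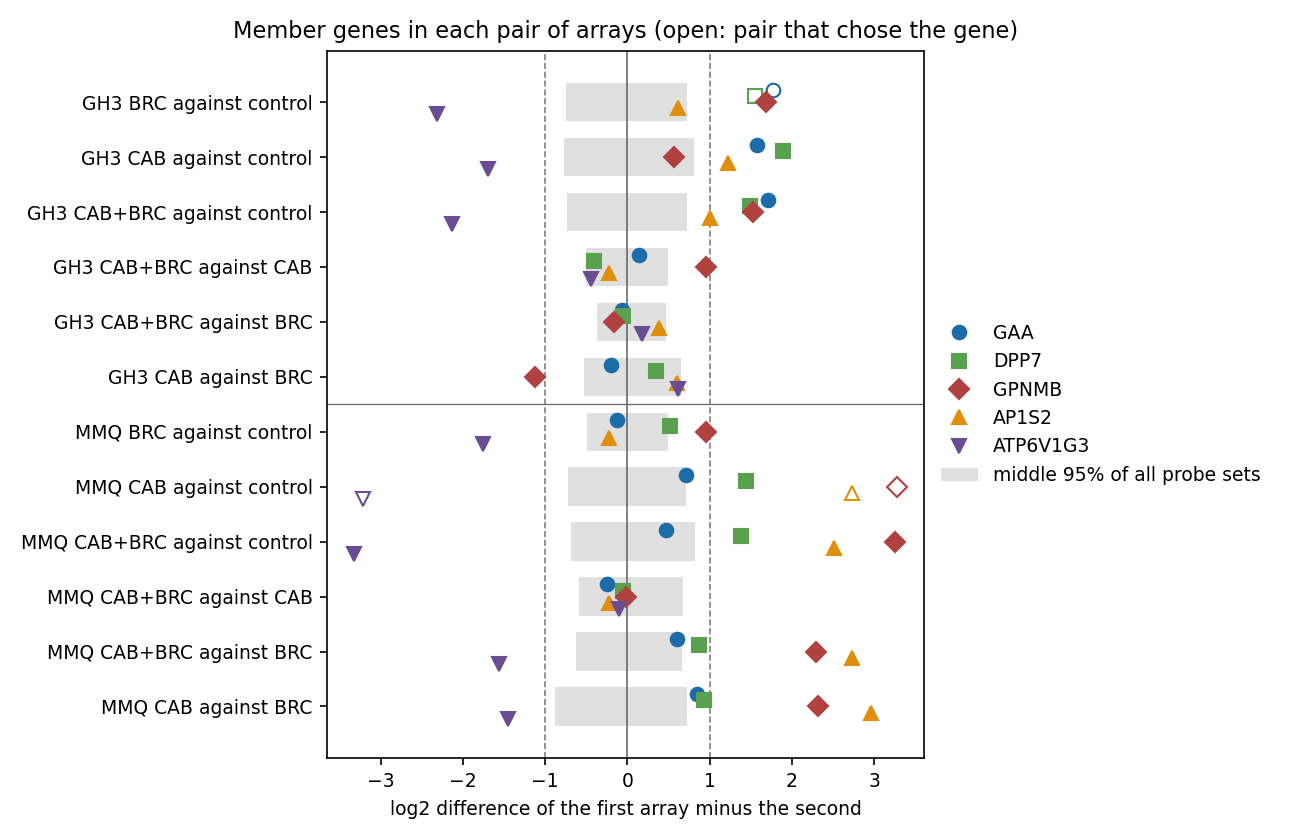
Difference in log2(intensity + 1) of each gene between the arrays of each pair (horizontal axis), with 1 row per pair, GH3 pairs above the line and MMQ pairs below it. Open symbols mark the pair that chose the gene, grey bars hold the middle 95% of all 28295 probe sets, and dashed lines mark 2-fold. ATP6V1G3 lies at -2.31 in GH3 BRC against control, while in GH3 CAB+BRC against BRC all 5 genes lie within 2-fold.

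The 8 arrays were entered in a limma model that holds separate CAB and BRC terms for GH3 and for MMQ cells. Its spread comes from how far the combination arrays depart from the sum of both drugs, with 2 residual degrees of freedom. The standard errors, intervals and adjusted p thus rest on departure from additivity. They do not measure variation between cultures, since no condition has a replicate. limma then draws the spread of each gene toward that of all tested probe sets, which adds 4.47 prior degrees of freedom. All 5 genes passed the filter on low values, a mean log2 intensity above the median of all probe sets, AP1S2 narrowly at percentile 54.1. GPNMB passed through MMQ cells, since its mean over the GH3 arrays alone was at percentile 40.8. AP1S2 and ATP6V1G3 passed through GH3 cells, where they are tested. Their means were at percentiles 66.8 and 85.0 over the GH3 arrays alone, and 40.1 and 49.5 over the MMQ arrays alone. Each gene's effects were tested only in the line that did not choose it. The spread of each gene comes from both lines, however, so it also draws on the arrays that chose the gene. In the line that chose it, the departure was -1.64 for GAA, -1.96 for DPP7, -0.98 for GPNMB, 0.01 for AP1S2 and 1.66 for ATP6V1G3. With all 8 arrays, the errors and adjusted p are therefore not independent of the choice. No member passed at a Benjamini-Hochberg adjusted p under 0.05.
In GH3 cells, GPNMB had an estimated BRC effect of 1.32 (log2, standard error 0.270, limma adjusted p = 0.403), which the filter would not have admitted on its GH3 values and which is given as a value only. AP1S2 had a CAB effect of 0.80 (standard error 0.207, 95% interval 0.30 to 1.30, limma adjusted p = 0.484). ATP6V1G3 had a BRC effect of -1.38 (standard error 0.506, 95% interval -2.60 to -0.16, limma adjusted p = 0.406) and a CAB effect of -0.76 (95% interval -1.98 to 0.46). Leaving out 1 GH3 array moved the BRC effect of ATP6V1G3 to -0.44 (control or BRC left out) or -2.31 (CAB or CAB+BRC left out). Its CAB effect changed sign, to 0.17, when the control or CAB array was left out. The intervals of AP1S2 for CAB and ATP6V1G3 for BRC leave out 0 when each gene is taken alone, but over 14147 tested probe sets limma called 0 for BRC (0%, with 1691 at an unadjusted p under 0.05) and 0 for CAB (0%, 1436 unadjusted). The call for AP1S2 changed with the arrays used. In the fits that called AP1S2, its own spread came from the MMQ arrays alone, which include the pair that chose it. Its departure from the sum of both drugs was 0.01 in MMQ cells and -0.84 in GH3 cells, so that call is a description only. Without the GH3 BRC or the GH3 CAB+BRC array its CAB effect was 1.23 with an adjusted p of 0.0295 in limma, where 6.76% of all tested probe sets passed, and over all alternatives its adjusted p ran from 0.0295 to 0.892.
In MMQ cells, DPP7 had a CAB effect of 1.16 (standard error 0.420, 95% interval 0.15 to 2.17, limma adjusted p = 0.192) and GAA one of 0.66 (standard error 0.346, 95% interval -0.18 to 1.49, limma adjusted p = 0.350). Limma called 4.44% of all tested probe sets for CAB in MMQ cells. Without any one of the GH3 arrays, the spread comes from MMQ cells alone and both genes passed, DPP7 with an adjusted p of 0.0142 and GAA with 0.0208 in limma, in fits that called 11.2% of all tested probe sets. Over all alternatives the adjusted p ran up to 0.909 for DPP7 and 0.980 for GAA. For BRC in MMQ cells the effects were 0.23 for DPP7 and -0.19 for GAA, both with intervals that include 0, and limma called 0 of all tested probe sets (0%, 1663 unadjusted).

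**Figure D3:**
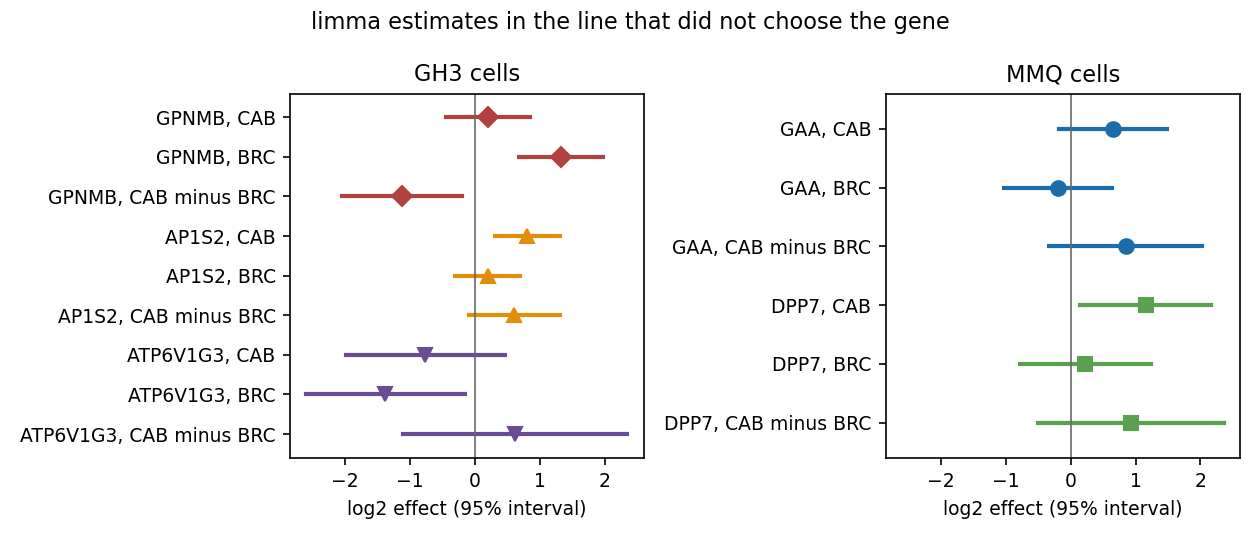
limma estimates (points, log2 scale) with 95% intervals (bars) for CAB, BRC and CAB minus BRC, for the 3 genes tested in GH3 cells (left) and the 2 tested in MMQ cells (right). The bar of AP1S2 for CAB in GH3 cells runs from 0.30 to 1.30 and that of DPP7 for CAB in MMQ cells from 0.15 to 2.17. GPNMB passed the filter through its MMQ values, and AP1S2 and ATP6V1G3 through their GH3 values. None of the estimates passed after adjustment over all tested probe sets. The bars rest on departure from the sum of both drugs and not on replicate cultures.

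BRC and CAB were compared with each other within each line at 50 μM, although the time of 1 of the arrays in each line was not found. The study's viability assay found that this dose over 48 h killed cells of both lines with either drug. The loss was greater with BRC in GH3 cells and with CAB in MMQ cells, so an equal dose was not an equal loss. How far cell death enters these values was not tested. In GH3 cells GPNMB was the gene 2-fold apart between CAB and BRC, at rank 13 from the bottom (limma adjusted p = 0.524, on dim values that passed the filter through MMQ cells). Its log2 difference was -0.79 with 16 in place of 1 added, and ran from -1.85 without the GH3 CAB array to -0.39 without the GH3 BRC array. AP1S2 (0.61, 95% interval -0.10 to 1.31) and ATP6V1G3 (0.62, 95% interval -1.11 to 2.34) had intervals that include 0 and reach beyond 2-fold. Their direction rested on single arrays, since AP1S2 was at -0.24 without the GH3 CAB array and ATP6V1G3 at -1.25 without the GH3 BRC array. Limma called 0 of all tested probe sets for this difference in GH3 cells (0%, 1254 unadjusted). In MMQ cells 3 of 5 genes were 2-fold apart between CAB and BRC, GPNMB and AP1S2 higher and ATP6V1G3 lower with CAB, against 2.97% of all. These are the genes chosen on the MMQ CAB array, so no test is given. GAA (0.85, 95% interval -0.33 to 2.03, limma adjusted p = 0.422) and DPP7 (0.93, 95% interval -0.50 to 2.36, limma adjusted p = 0.471) were tested. Neither passed, while 1.70% of all tested probe sets did, and their intervals leave room for differences above 2-fold as well as for none. GPNMB thus had its highest GH3 value with BRC and its highest MMQ value with CAB. Whether that difference between the lines exceeds the error was not tested, because the gene was chosen on the MMQ arrays.

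In either line, the combination lay no farther from the control than the stronger single drug did, except for ATP6V1G3 in MMQ cells, at a log2 difference of -3.32 against -3.22 with CAB. In GH3 cells the CAB and BRC log2 differences of GAA sum to 3.35, whereas CAB+BRC against control gave 1.71. For DPP7 the sum was 3.45 and the combination gave 1.49, and for ATP6V1G3 the sum was -4.01 and the combination gave -2.14. GPNMB departed from the sum by -0.73 and AP1S2 by -0.84, where the standard deviation over all tested probe sets was 0.459 in GH3 cells. For GAA and DPP7 the sum holds the pair that chose them, which by itself favours a combination below the sum, so their departures are descriptions. The GH3 control array enters the sum of every gene, and its part in this was not tested. In MMQ cells GAA departed by -0.12 and DPP7 by -0.58, where the standard deviation over all tested probe sets was 0.300. For the 3 genes whose sum holds their choosing pair, the departures were 0.01 for AP1S2, -0.98 for GPNMB and 1.66 for ATP6V1G3. ATP6V1G3 and GPNMB reached nearly the same level with CAB+BRC as with CAB alone in MMQ cells, although BRC alone gave log2 differences of -1.76 and 0.96 from the control, in that order.

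**Figure D4:**
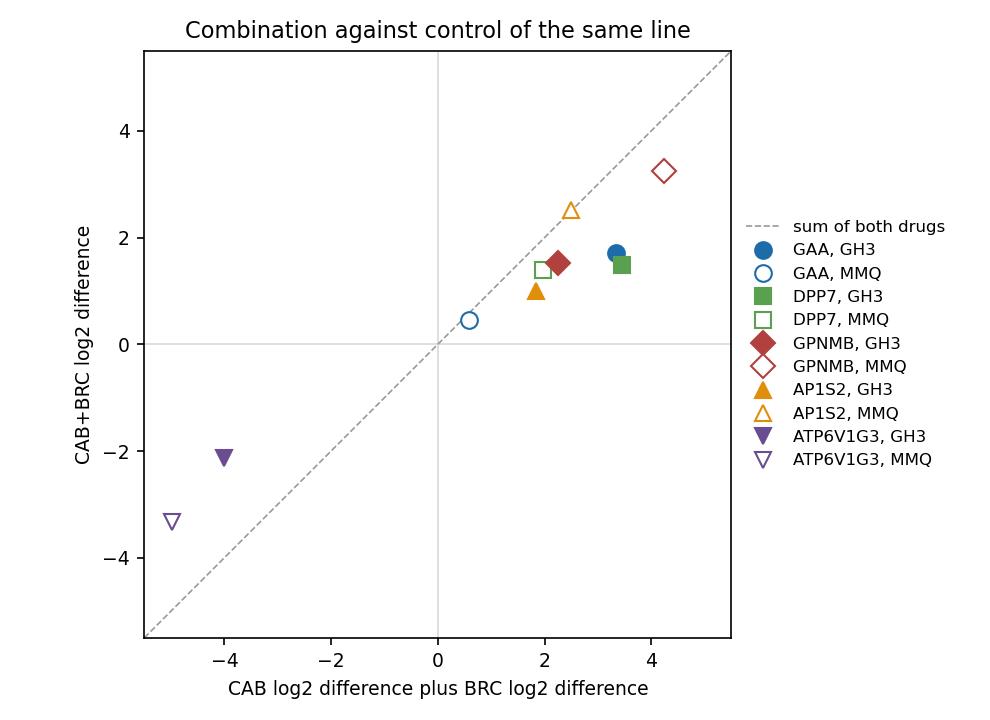
Difference in log2 intensity between CAB+BRC and the control of the same line (vertical axis) against the sum of the differences for CAB alone and BRC alone (horizontal axis), with GH3 cells as filled and MMQ cells as open symbols. On the dashed line the combination equals the sum. AP1S2 in MMQ cells lies on it, at 2.51 against 2.50, and DPP7 in GH3 cells lies well below it, at 1.49 against 3.45.

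The members were also set against the 15 other genes of the study's tables that could be found by their fold. By Pearson's r of log2 intensity over the 8 arrays, the genes most like GAA were DPP7 (0.91) and LGALS3 (0.71), which encodes a galectin. DPP7 was most like GAA and then LGALS3 (0.77). GPNMB was most like CCL7 (0.93), a chemokine gene, and MVD (0.90), an enzyme gene of cholesterol synthesis. AP1S2 was most like DDIT3 (0.80), a transcription factor gene of the stress response, and DPP7 (0.74). ATP6V1G3 was most like SHCBP1 (0.84) and CDCA3 (0.82), both known from dividing cells. With the mean of each line subtracted, DPP7 stayed close to GAA (0.90), whereas CCL7 stood at rank 5 for GPNMB and DDIT3 at rank 8 for AP1S2. All of these genes were picked by the study for a large change on some of the same arrays, so high values of r are built into the comparison.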

How the data were processed

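RNA of 8 cultures was biotin-labelled and hybridized to Affymetrix rat genome arrays, and signal values came from the authors' run of the Affymetrix GeneChip Command Console software. The deposited values are linear intensities, 1 for each probe set on each array. The background correction, the summarization and any scaling between arrays were not given in the sources used here. Arrays were assigned to conditions by the labels, and times by the study's methods. Genes were identified by the ratio of 2 deposited intensities to the fold in the study's tables, at a tolerance of 1e-06, and no other value of those tables was used. The 5 members, the gene list and the tests were chosen with earlier results of these data known, and the promoter search was added after the values were seen.

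Differences were taken in log2(intensity + 1) with Python 3.11.15. Precision is limited by the number of arrays. limma 3.58.1 (R 4.3.3), with lmFit and eBayes, was fitted to 14147 probe sets above the median mean log2 value, two-sided, with Benjamini-Hochberg adjustment over all of them. This model takes the log2 effects of the drugs as additive. Both procedures were run on simulated data for BRC in GH3 cells. Those data were additive, with a spread taken from the fitted model. The run cannot show how the procedures behave where the drugs are not additive. Named genes were the members and, for each, the 2 most similar identified genes. Alternatives were quantile normalization, median centring, 0 or 16 in place of 1 added, thresholds of 1.5-fold and 3-fold, a tolerance of 1e-05, no filter, a trend in eBayes and each array left out.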

Additional observations from a re-analysis of the deposited data

Results flagged for a closer look

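The signs of the log2 differences of GAA with BRC differed between the lines, which is a description of values only. Both GH3 pairs were higher with BRC, by log2 differences of 1.77 against control and 0.14 against CAB alone, and both MMQ pairs were lower, by -0.13 and -0.25. The means of the pairs differed by 1.15 (GH3 minus MMQ). The difference between the lines was not tested, because the first GH3 pair chose the gene, and the other 3 values are small. The values 0.14 and -0.13 were smaller than the median absolute difference of all probe sets in their pairs, 0.153 and 0.149. Their signs therefore carry little information. The value -0.25 was larger in size than the median of its pair, 0.180.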

How the results depend on the processing

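Each of the 60 log2 differences of a member in a pair of arrays was recomputed under 4 alternatives of scaling and added constant. None changed sign among those at 2-fold (0 of them), and 3 crossed 2-fold: AP1S2 in GH3 CAB+BRC against control (1.02 with quantile normalization and 1.01 with 0 added), and GPNMB in GH3 CAB+BRC against control (0.99 with 16 added) and in GH3 CAB against BRC (-0.79 with 16 added). With 16 added, the count for GH3 CAB against BRC was 0. At 1.5-fold the counts of members were 1 for GH3 CAB+BRC against CAB (2.76% of all probe sets), 3 for GH3 CAB against BRC (5.03%), 2 for MMQ BRC against control (2.65%), 5 for MMQ CAB+BRC against BRC (6.45%) and 5 for MMQ CAB against BRC (10.4%). They were also 5 for GH3 BRC against control (9.19%), GH3 CAB+BRC against control (8.81%) and MMQ CAB against control (8.05%). At 3-fold they were 2 for GH3 CAB against control (0.297%), 2 for GH3 CAB+BRC against control (0.201%) and 0 for GH3 CAB against BRC (0.0318%). They were also 3 for GH3 BRC against control (0.216%), MMQ CAB against control (0.838%) and MMQ CAB+BRC against control (0.749%), and 2 for MMQ CAB+BRC against BRC (0.700%) and MMQ CAB against BRC (0.958%). All 5 genes matched 1 probe set at a tolerance of 1e-05. With an array left out, 0 to 2 members passed limma for CAB in MMQ cells (2 without any one of the GH3 arrays), 0 to 1 for CAB in GH3 cells (AP1S2 without the GH3 BRC or GH3 CAB+BRC array) and 0 for BRC in either line. With 1 array left out, drug effects below the threshold changed sign for AP1S2 with BRC (-0.23) and GPNMB (-0.16) and ATP6V1G3 (0.17) with CAB in GH3 cells, and for DPP7 with BRC in MMQ cells (-0.06). In these fits the line that lost an array adds nothing to the spread and is taken to vary as much as the intact line. For the calls of AP1S2 in GH3 cells, the intact line is the one that chose the gene. GAA also passed for CAB minus BRC in MMQ cells without any one of the GH3 arrays (0.85, adjusted p = 0.0354 in limma, with 6.75% of all tested probe sets called, and up to 1.00 over its alternatives). The other alternatives of the fit, with every array kept, called no member. No paired analysis was possible because each condition has 1 array and the labels give no replicate numbers. Low intensities limit AP1S2 in MMQ cells, GPNMB in GH3 cells and ATP6V1G3 in the MMQ arrays with CAB. With 16 added, ATP6V1G3 in MMQ CAB against control was at -2.55, against -3.22 with 1 added. In MMQ CAB+BRC against BRC it was at -1.07, against -1.56.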
